A study of Malus domestica with 6 samples.

Results

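The genes described here are those of the deposited table whose description holds the word kinase and whose listed protein domains include no bulb-type lectin, NB-ARC or TIR domain. This rule found 93 of the 1261 listed apple (Malus domestica) genes; 97 descriptions hold the word, and 4 were left out for their domains. By their descriptions 72 of the 93 are protein kinases, 20 are enzymes that act on sugars, lipids, nucleotides or other small molecules, and 1 is a substrate of MAP kinases, so the name protein kinase genes holds for most but not all of them. A catalytic protein kinase domain is listed for 60. The tissue was exocarp, the outer skin of the fruit, taken in October 2012, from which purified mRNA was sequenced. The russeted group held Reinette Parmentier, Patte de Loup and St Edmund's Pippin, with fully russeted (corky) skin, and the waxy group held AF42, AG94 and Gala, with fully waxy skin. Each variety gave 1 library (n = 3 per group), so skin type and every other difference between these varieties cannot be told apart, and errors are the spread between varieties. The authors listed genes for a difference on these same libraries, so the tests below are on selected genes and are not independent evidence.

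Protein kinases add phosphate to other proteins and so pass signals from the cell surface to enzymes and transcription factors. In plants most surface receptors are receptor-like kinases, in which an outer domain (leucine-rich repeats, a lectin, malectin-like or cysteine-rich fold) is joined through the membrane to a kinase domain inside the cell. Calcium-dependent kinases, kinases that bind calcineurin B-like calcium sensors and MAP kinase cascades act downstream, and receptors such as FERONIA of Arabidopsis are known for sensing the state of the cell wall.

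Mapped reads ranged from 9.44 M in Gala to 19.1 M in Reinette Parmentier. Reads per member and library ran from 1 to 5984, and 51 of the 93 members had at most 50 reads in at least 1 library. The skins were told apart by textbook marker genes of the table: all 5 cuticle gene models fell in russeted exocarp (for example KCS6, MDP0000392495, from 198 to 8.29 RPKM on average), and all 5 suberin gene models rose (for example GPAT5, MDP0000150502, from 1.57 to 27.0 RPKM). With TMM factors GPAT5 and the CYP86B1 model MDP0000306273 still passed the threshold (edgeR adjusted p = 0.0165 and 0.0139). The CYP86A1 models MDP0000879217 and MDP0000923760 and the CYP86B1 model MDP0000234292 then missed it (0.182, 0.0837 and 0.0772). Of 5 markers of vascular tissue, 3 rose (0 with TMM factors, 3 with DESeq2 size factors), 0 fell and 0 were at 0, and their summed level was 118 to 183 RPKM in russeted and 27.4 to 40.2 RPKM in waxy libraries. Of 5 genes found by words for photosynthetic tissue 0 passed the threshold (1 fell with TMM factors and 2 with DESeq2 size factors). The ELIP genes and PSB29 were the 3 below 0 (log2 fold changes of -2.40, -1.73 and -1.42). The 2 above 0, MDP0000127915 and MDP0000277451, are described as Mog1/PsbP-like and share 1 Arabidopsis match, so they may not mark this tissue. The summed level of the 5 was 479 to 3821 RPKM in russeted and 3702 to 7719 RPKM in waxy libraries. Most of that sum was 1 ELIP gene, MDP0000840536, at 366 to 3595 RPKM in russeted and 3352 to 7177 RPKM in waxy libraries, with overlapping groups. The part of either tissue in the values below was not tested, and in bulk RNA fewer cells of a type and less RNA per cell cannot be told apart.

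Of 92 members tested, 12 rose and 6 fell in russeted exocarp, and 74 missed the threshold (edgeR quasi-likelihood test on read counts, Benjamini-Hochberg adjusted p under 0.05). Among all 1246 tested genes 28.5% were called, 19.2% as risen and 9.31% as fallen. The members stood below that background, with 19.6% called, 13.0% as risen and 6.52% as fallen. Their median log2 fold change (log2FC, russeted minus waxy) was 1.21, against 1.19 over all tested genes, and 75.0% of them were above 0, against 73.8%. The phenotypes did not overlap in 85 of the 93 members (91.4%), against 87.5% of all listed genes, a share that the selection of the table fixes in large part. The direction of many members depended on the scaling. TMM factors, which set the typical listed gene near 0, moved the median of all tested genes from 1.19 to 0.18, and 3 members then rose and 22 fell. With DESeq2 size factors 6 rose and 23 fell. Both kinds of factor take most genes to be unchanged, but they were computed on listed genes alone, which were selected for a difference. They are therefore given as alternatives, and mapped reads as the main scaling. All folds that follow are per mapped read unless TMM or DESeq2 is named. Leaving out Reinette Parmentier gave 6 risen and 2 fallen members, leaving out Gala 7 and 6, and leaving out St Edmund's Pippin 9 and 2.

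**Figure D1:**
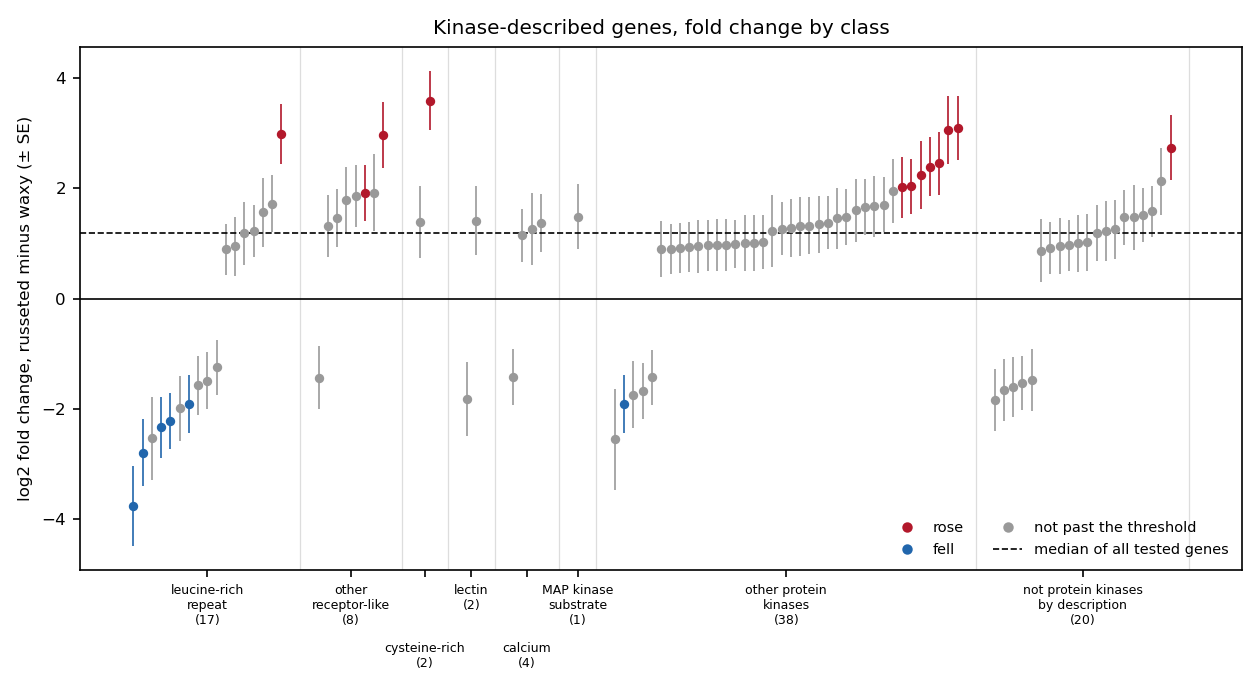
Log2FC (log2 fold change, russeted minus waxy) of each tested member, with its SE, by class; red points rose, blue points fell, grey points missed the threshold, and the dashed line is the median of all tested genes (1.19). In the leucine-rich repeat class 10 of 17 points lie below 0, and in the class of other protein kinases 33 of 38 lie above it. Of all tested genes 73.8% lie above 0.

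The leucine-rich repeat receptor kinases lay on both sides of 0. These receptors bind peptides, hormones or pathogen molecules with repeats outside the cell. Of 18 members 17 were tested: 5 fell (29.4%, against 9.31% of all tested genes), 1 rose (5.88%, against 19.2%) and 11 missed the threshold. Their log2FCs ran from -3.76 to 2.99 with a median of -1.49, against 1.19 for all tested genes. They held 5 of the 6 fallen members per mapped read, 10 of 22 with TMM factors and 11 of 23 with DESeq2 size factors. Fold changes were below 0 in 10 and above 0 in 7, and with TMM factors in 12 and 5, so that 10 then fell and 1 rose. Leaving out St Edmund's Pippin gave 2 fallen genes, MDP0000612779 and MDP0000202190, of which the second was not among the 5. Leaving out Reinette Parmentier gave 1 and leaving out Patte de Loup 3. The class was set by description words. By listed leucine-rich repeat domains instead, 12 members were found, TMK1 (MDP0000513732) of the next class among them. Of these 12, 6 were above and 6 below 0, with a median log2FC of -0.17, and 1 rose and 1 fell. With TMM factors 1 of the 12 rose and 6 fell.

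In a subgroup of 5 genes, described as leucine-rich repeat transmembrane protein kinases, 3 fell, 2 missed the threshold, and all 5 fold changes were below 0 with mapped reads, TMM factors and DESeq2 size factors alike. A malectin-like domain, a fold that can bind sugars, is listed for 3 of the 5. MDP0000158407 was at 3.83, 3.42 and 7.71 RPKM in St Edmund's Pippin, then Reinette Parmentier, then Patte de Loup (the order used for all russeted values), and at 21.2, 20.1 and 62.6 RPKM in AG94, AF42 and Gala (the order used for all waxy values). Every waxy value lay above every russeted one, and Gala stood highest. Means of 4.99 ± 2.37 (SD, russeted) and 34.6 ± 24.2 RPKM (waxy) differed 6.95-fold (log2FC -2.79 ± 0.61 SE, adjusted p = 0.0140; 0.0708 with St Edmund's Pippin left out, 0.0771 with Reinette Parmentier left out). MDP0000389758 was at 2.46, 4.43 and 6.30 RPKM in russeted and at 16.2, 20.1 and 25.5 RPKM in waxy varieties. The groups again lay apart (log2FC -2.22 ± 0.51, adjusted p = 0.0178; 0.0620 with St Edmund's Pippin left out, 0.0797 with Reinette Parmentier left out). MDP0000148123 was at 4.08, 7.93 and 10.7 RPKM in russeted and at 21.4, 39.7 and 25.2 RPKM in waxy varieties (log2FC -1.92 ± 0.53, adjusted p = 0.0435). Its call was lost without any 1 variety but AG94 (0.0585 without Gala to 0.136 without AF42) and on unique reads (0.0732). In all 3 genes St Edmund's Pippin or Reinette Parmentier was the lowest library and Patte de Loup the highest russeted one. The 2 members not past the threshold, MDP0000213902 and MDP0000169487, had log2FCs of -1.58 and -1.49 (adjusted p = 0.115 and 0.120), and the groups overlapped in the first. The 5 genes match 3 Arabidopsis genes, and 60.2% to 75.1% of their reads were unique, so part of their reads was also placed elsewhere.

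The lowest fold change of any member was that of the leucine-rich repeat kinase gene MDP0000612779. It was at 1.49, 1.02 and 0.19 RPKM in russeted and at 9.51, 22.0 and 4.93 RPKM in waxy varieties, a 13.5-fold difference of the means (log2FC -3.76 ± 0.73, adjusted p = 0.00803). Patte de Loup held 10 reads of this gene and AF42 710, and 45.2% of the reads were unique. A second gene with the same Arabidopsis match, MDP0000720974, had a log2FC of -1.99 and missed the threshold (adjusted p = 0.0620). MDP0000599231 was at 0.77, 0.59 and 0.69 RPKM in russeted and at 5.11, 2.01 and 3.16 RPKM in waxy varieties (log2FC -2.34 ± 0.55, adjusted p = 0.0186; 0.0539 without AG94 to 0.108 without Reinette Parmentier, 0.0734 with limma, and lost without any 1 russeted variety). MDP0000202190 had a log2FC of -2.54 ± 0.76 and missed the threshold (adjusted p = 0.0632), and its groups overlapped, St Edmund's Pippin being at 1.54 and Gala at 1.42 RPKM.

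The leucine-rich repeat gene that rose, MDP0000195716, was at 2.35, 2.23 and 4.02 RPKM in russeted and at 0.48, 0.25 and 0.28 RPKM in waxy varieties. Its russeted values all lay above its waxy ones, an 8.51-fold difference of the means (log2FC 2.99 ± 0.55, adjusted p = 0.00610), with 6, 2 and 2 reads in the waxy libraries. The call held in every fit without 1 variety and with TMM factors (adjusted p = 0.0432). A further 3 leucine-rich repeat genes, which have 1 Arabidopsis match in common but not that of MDP0000195716, were on the same side of 0. MDP0000731702, MDP0000127306 and MDP0000292756 had log2FCs of 0.90 to 1.72 and missed the threshold; with TMM factors MDP0000731702 was at -0.11. MDP0000148258 was removed by the low-count filter; with no filter the class had 18 tested and 6 fallen genes. It was at 0.82, 0.49 and 0.11 RPKM in russeted and at 0.88, 4.59 and 5.10 RPKM in waxy varieties.

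**Figure D2:**
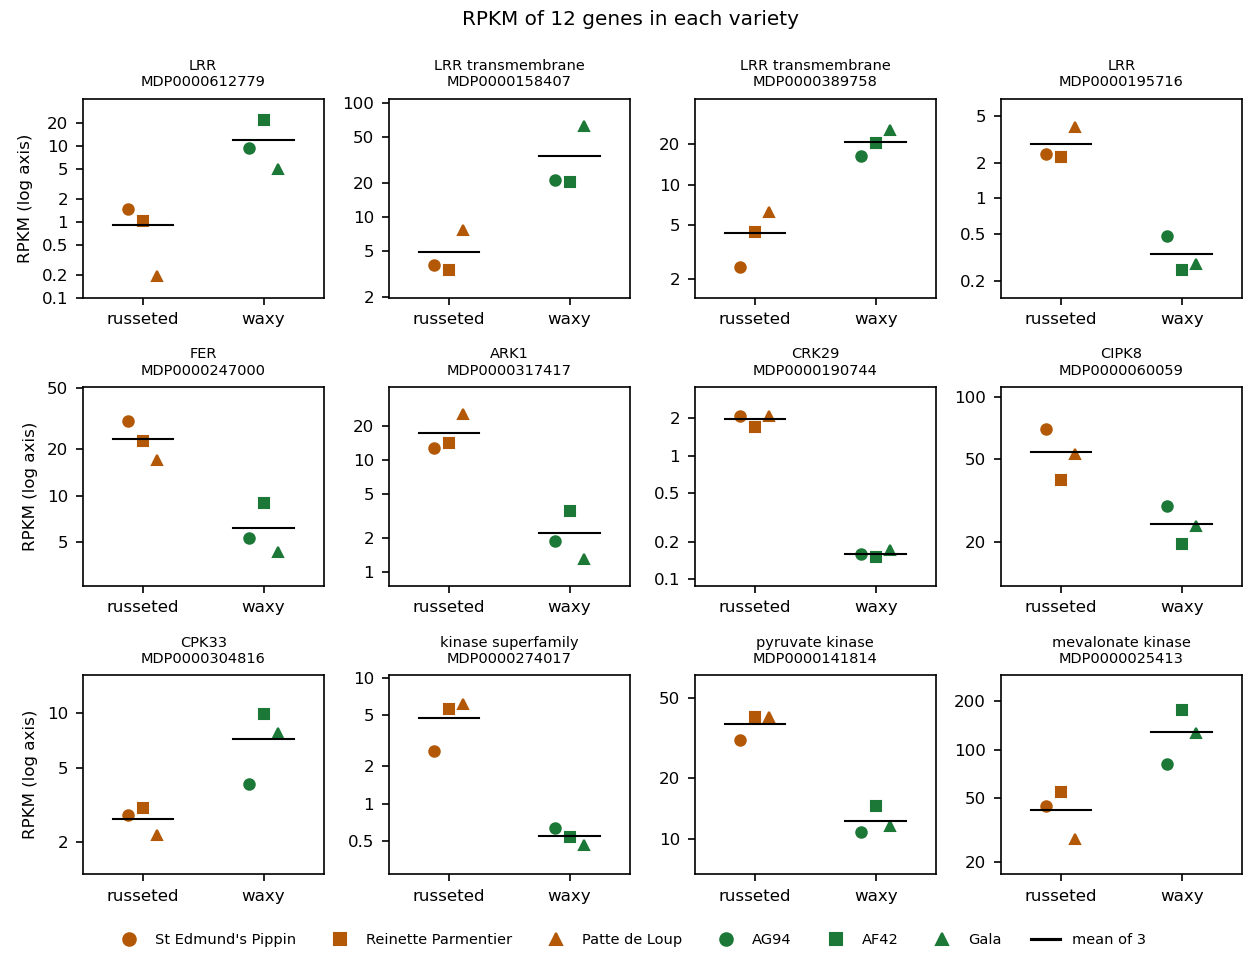
RPKM (log axis) of 12 members in each variety; each point is 1 library and each line the mean of 3. The russeted and waxy points do not overlap in these panels, as in 87.5% of all listed genes, and in the leucine-rich repeat panels the waxy points lie higher except in MDP0000195716.

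Among the 8 other receptor-like kinases 2 rose (25%, against 19.2% of all tested genes), 0 fell and 6 missed the threshold. Their median log2FC was 1.82, against 1.19. FERONIA (FER) is the malectin-like receptor kinase that binds RALF peptides and takes part in wall sensing in Arabidopsis. Its apple match MDP0000247000 was at 30.7, 22.9 and 17.0 RPKM in russeted and at 5.36, 9.02 and 4.32 RPKM in waxy varieties. The lowest russeted value, in Patte de Loup, was above the highest waxy one, in AF42, and the means differed 3.77-fold (log2FC 1.92 ± 0.51, adjusted p = 0.0389). With TMM factors the fold change was 0.93 (adjusted p = 0.779), and the call was lost without any 1 variety but AF42 (0.0525 without Patte de Loup to 0.164 without Gala). The second FER copy, MDP0000267830, had the same fold change, 1.92 ± 0.70, with overlapping groups and 45.5% unique reads (adjusted p = 0.141). The 2 FER copies and the 3 transmembrane leucine-rich repeat genes with a listed malectin-like domain stood on opposite sides of 0 under each of the 3 scalings.

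ARK1 (MDP0000317417), matched to an S-domain receptor kinase of Arabidopsis, was at 12.8, 14.1 and 25.6 RPKM in russeted and at 1.88, 3.53 and 1.31 RPKM in waxy varieties. Patte de Loup was highest and Gala lowest (log2FC 2.96 ± 0.60, adjusted p = 0.00993; 0.0531 with TMM factors). Its call held in every fit without 1 variety. Both copies of PR5K, a receptor kinase with a thaumatin-like outer domain, had fold changes of 1.79 and 1.86 on the log2 scale and missed the threshold (MDP0000574183, adjusted p = 0.0988, and MDP0000278380, adjusted p = 0.0673). TMK1 (MDP0000513732), a receptor kinase of auxin signalling in Arabidopsis, had means of 30.4 ± 13.0 (russeted) and 12.2 ± 8.26 RPKM (waxy) (adjusted p = 0.246). ANX2 (MDP0000204468), of the same malectin-like family as FER, had a log2FC of 1.46 (adjusted p = 0.129). CERK1 (MDP0000136494), the chitin receptor kinase, was the member of this class below 0, with a log2FC of -1.43 (adjusted p = 0.185) and 25.4% unique reads.

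The highest rise of any member was that of the cysteine-rich receptor-like kinase gene CRK29 (MDP0000190744), of a family known for induction by pathogens and oxidative stress. It was at 2.10, 1.72 and 2.09 RPKM in russeted and at 0.16, 0.15 and 0.17 RPKM in waxy varieties. The values were nearly equal within each phenotype, and the means differed 12.3-fold (log2FC 3.59 ± 0.54, adjusted p = 0.00346). The waxy values rest on 5, 3 and 3 reads. The call held without any 1 variety and with TMM factors (adjusted p = 0.00918), and was lost with limma on log2(RPKM + 1) (adjusted p = 0.0567). The other cysteine-rich member, CRK25 (MDP0000171545), had overlapping groups and a log2FC of 1.40 (adjusted p = 0.314). Of the 2 lectin receptor kinases 0 were past the threshold, the S-locus lectin gene MDP0000199116 with a log2FC of -1.82 (adjusted p = 0.149; 0.0225 with TMM factors, 0.0490 with limma) and the legume-type lectin gene MDP0000395148 with 1.41 (adjusted p = 0.271).

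Calcium signalling kinases gave 4 members, of which 0 passed the threshold. CIPK8, a kinase that is switched on by calcineurin B-like calcium sensors, had 2 copies. MDP0000060059 was at 69.9, 39.9 and 53.0 RPKM in russeted and at 29.8, 19.7 and 23.9 RPKM in waxy varieties, the highest mean of a protein kinase member in russeted exocarp. Its groups lay apart but its log2FC of 1.15 ± 0.48 missed the threshold (adjusted p = 0.229), and 12.5% of its reads were unique. The second copy, MDP0000287150, had a log2FC of 1.37 ± 0.53 (adjusted p = 0.172) and 24.9% unique reads. CRCK3 (MDP0000786814), a calmodulin-binding cytoplasmic kinase, had a log2FC of 1.26 ± 0.66 (adjusted p = 0.408). CPK33 (MDP0000304816), a kinase with its own calcium-binding domain in Arabidopsis, was the member of this class on the other side. It was at 2.81, 3.05 and 2.18 RPKM in russeted and at 4.13, 9.82 and 7.74 RPKM in waxy varieties (log2FC -1.42 ± 0.51, adjusted p = 0.136; 0.0158 with TMM factors). With TMM factors the other 3 came to at most 0.32. Kinases described by family alone but named for calcium pathways missed the threshold either: SOS2 (MDP0000270573), the salt tolerance kinase of the CIPK family, had a log2FC of 0.90, and CRLK1 (MDP0000320726), a calmodulin-regulated receptor-like kinase, also 0.90; both were below 0 with TMM factors (-0.16 and -0.14).

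No member was described as wall-associated (0 of 93), 0 were left for a cytosolic class beside CRCK3, and the MAP kinase words found 1 gene. This was MKS1 (MDP0000127852), which is a substrate of a MAP kinase and not a kinase. It had means of 4.57 ± 2.07 (russeted) and 1.62 ± 1.30 RPKM (waxy), with overlapping groups (log2FC 1.48 ± 0.59, adjusted p = 0.193).

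The remaining 38 protein kinases, 26 of them described as protein kinase superfamily alone, held 7 risen and 1 fallen gene, with 30 not past the threshold. These are 18.4% risen and 2.63% fallen, against 19.2% and 9.31% of all tested genes. The median log2FC was 1.28, against 1.19. Fold changes were above 0 in 33 (86.8%, against 73.8% of all tested genes) and below 0 in 5. With TMM factors these counts were 23 and 15, and 1 rose and 4 fell. Leaving out Reinette Parmentier or AG94 gave 2 risen genes, leaving out Gala 3 and leaving out Patte de Loup 4. MDP0000274017 was at 2.61, 5.61 and 6.11 RPKM in russeted and at 0.64, 0.54 and 0.47 RPKM in waxy varieties. The groups lay far apart, with St Edmund's Pippin the lowest russeted library (log2FC 3.10 ± 0.58, adjusted p = 0.00687; 0.0371 with TMM factors). MDP0000277420 was at 2.01, 2.69 and 1.08 RPKM in russeted and at 0.14, 0.13 and 0.44 RPKM in waxy varieties, on 5, 3 and 9 waxy reads (log2FC 3.06 ± 0.62, adjusted p = 0.0104; 0.119 with TMM factors). Both calls held without any 1 variety, and that of MDP0000277420 was lost with limma (adjusted p = 0.0987).

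The other 5 risen genes of this class had log2FCs of 2.02 to 2.45, and each lost its call without 3 or more single varieties. Waxy reads were 4, 7 and 1 in MDP0000222639 and 5, 4 and 6 in MDP0000421528. An integrin-linked kinase family gene, MDP0000222639, had means of 2.49 ± 0.42 (russeted) and 0.450 ± 0.39 RPKM (waxy) (adjusted p = 0.0183; 0.0528 without Reinette Parmentier to 0.0841 without AG94). MDP0000421528, a kinase with tetratricopeptide repeats, averaged 2.59 ± 0.94 and 0.503 ± 0.20 RPKM (adjusted p = 0.0159; 0.0531 without AF42 to 0.0750 without AG94). A pair of genes with 1 shared Arabidopsis match rose by nearly the same size, MDP0000148685 by 2.04 ± 0.50 (adjusted p = 0.0238; 0.0557 without Patte de Loup to 0.104 without Gala) and MDP0000282292 by 2.02 ± 0.55 (adjusted p = 0.0426; 0.0607 without Gala to 0.185 without Patte de Loup). MDP0000148685 had means of 26.1 ± 2.01 (russeted) and 6.34 ± 2.88 RPKM (waxy), with 42% unique reads. MDP0000148287 rose by 2.25 ± 0.62 (adjusted p = 0.0435; 0.0949 without Reinette Parmentier to 0.252 without Patte de Loup). With TMM factors these 5 genes missed the threshold (adjusted p = 0.266 for MDP0000222639 to 1 for MDP0000282292), and with limma MDP0000148685 alone passed it (0.0528 for MDP0000148287 to 0.0931 for MDP0000421528 in the others). On unique reads MDP0000282292 and MDP0000148287 missed the threshold (adjusted p = 0.0569 and 0.0647).

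The fallen gene of this class was MDP0000237989, at 1.72, 4.87 and 3.74 RPKM in russeted and at 17.0, 9.86 and 12.2 RPKM in waxy varieties (log2FC -1.91 ± 0.52, adjusted p = 0.0418). It lost its call without any 1 variety but AF42 (0.0603 without Gala to 0.140 without AG94). D6PKL3 (MDP0000235502), an AGC kinase, was at 0.10, 5.39 and 0.34 RPKM in russeted and at 16.0, 6.96 and 11.9 RPKM in waxy varieties. Reinette Parmentier stood close to the waxy AF42 while the other two russeted libraries held 2 and 10 reads, and the log2FC of -2.56 ± 0.92 missed the threshold (adjusted p = 0.133; 0.00540 with Reinette Parmentier left out and 0.0205 with limma). OXI1 (MDP0000179238), a kinase of oxidative burst signalling in Arabidopsis, had means of 5.36 ± 2.26 (russeted) and 17.1 ± 6.89 RPKM (waxy) (log2FC -1.68, adjusted p = 0.0718; 0.00803 with TMM factors).

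Several further genes of the class, chosen after their values were seen, were not past the threshold. The cytokinin receptor AHK3 (MDP0000155347) had means of 37.2 ± 9.63 (russeted) and 18.6 ± 0.97 RPKM (waxy) (adjusted p = 0.386). PINOID (MDP0000822558), which phosphorylates auxin carriers, averaged 17.3 ± 4.66 and 6.64 ± 1.43 RPKM (adjusted p = 0.114). The shaggy-like kinase SK32 (MDP0000225663) averaged 17.4 ± 7.34 and 5.35 ± 1.36 RPKM (adjusted p = 0.0593), with 28.8% unique reads. Both copies of SNRK2-8, of a family activated by osmotic stress, had log2FCs of 0.97 (MDP0000816297) and 1.46 (MDP0000344026). All 3 WNK genes, named for a missing lysine of the kinase core, lay between 1.23 and 1.66 on the log2 scale. With TMM factors they lay between 0.17 and 0.63. The highest, WNK1 (MDP0000311885), had 15.7% unique reads and came to 0.64 on unique reads. The lowest, MDP0000211456, is described as WNK-related. With TMM factors AHK3 came to -0.02 and the SNRK2-8 copy MDP0000816297 to -0.05.

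The 20 members that are not protein kinases by their descriptions gave 1 risen (5%, against 19.2% of all tested genes) and 0 fallen genes. Their median log2FC was 1.01, and 0.0031 with TMM factors, where 0 rose and 5 fell. The risen gene, MDP0000305310, is described as a phosphoribulokinase or uridine kinase. It was at 13.0, 24.7 and 42.9 RPKM in russeted and at 5.98, 3.28 and 2.81 RPKM in waxy varieties (log2FC 2.74 ± 0.59, adjusted p = 0.0132; 0.121 with TMM factors), and its call held without any 1 variety. The gene model also lists a peroxidase and an F-box domain, so its reads can come from more than 1 gene. All 7 pyruvate kinase genes, whose products catalyse the last step of glycolysis, had fold changes above 0 (0.87 to 1.58 on the log2 scale), which with TMM factors held for 5, and 0 passed the threshold. They match 1 Arabidopsis gene, and 14.3% to 59.9% of their reads were unique, so they are not 7 independent measurements. MDP0000124883, at 244, 197 and 135 RPKM in russeted and 86.4, 155 and 73.5 RPKM in waxy varieties, was the most abundant member in russeted exocarp, with overlapping groups (adjusted p = 0.765). MDP0000141814 came nearest to the threshold (log2FC 1.58 ± 0.46, adjusted p = 0.0581; 0.0469 on unique reads). PFK3 (MDP0000264118) and PFK7 (MDP0000770587), phosphofructokinases of early glycolysis, had log2FCs of 2.13 (adjusted p = 0.0517) and 1.23 (adjusted p = 0.263).

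Genes of the mevalonate pathway, which supplies sterols and triterpenes, lay on the other side and missed the threshold. Mevalonate kinase (MDP0000025413) was at 44.4, 54.2 and 27.7 RPKM in russeted and at 81.8, 176 and 128 RPKM in waxy varieties. Its groups did not overlap (log2FC -1.61 ± 0.54, adjusted p = 0.104; 0.0156 with TMM factors). The 2 genes of the GHMP kinase family share 1 Arabidopsis match, and 1 of them carries the enzyme number of diphosphomevalonate decarboxylase, the step after the pathway's kinases. MDP0000156057, the most abundant member in waxy exocarp, had means of 57.0 ± 26.2 (russeted) and 159 ± 35.0 RPKM (waxy) (log2FC -1.48 ± 0.56, adjusted p = 0.164) with 27.2% unique reads, and MDP0000232665 averaged 44.9 ± 13.8 and 142 ± 62.3 RPKM (log2FC -1.66 ± 0.56, adjusted p = 0.108). Lipid kinases went both ways. The 2 phosphoinositide 4-kinase genes had log2FCs of 0.96 (MDP0000261291) and 1.47 (MDP0000573835), and the 2 diacylglycerol kinase genes -1.84 (MDP0000269414) and 1.19 (MDP0000322556), with 0 of these 4 past the threshold.

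**Figure D3:**
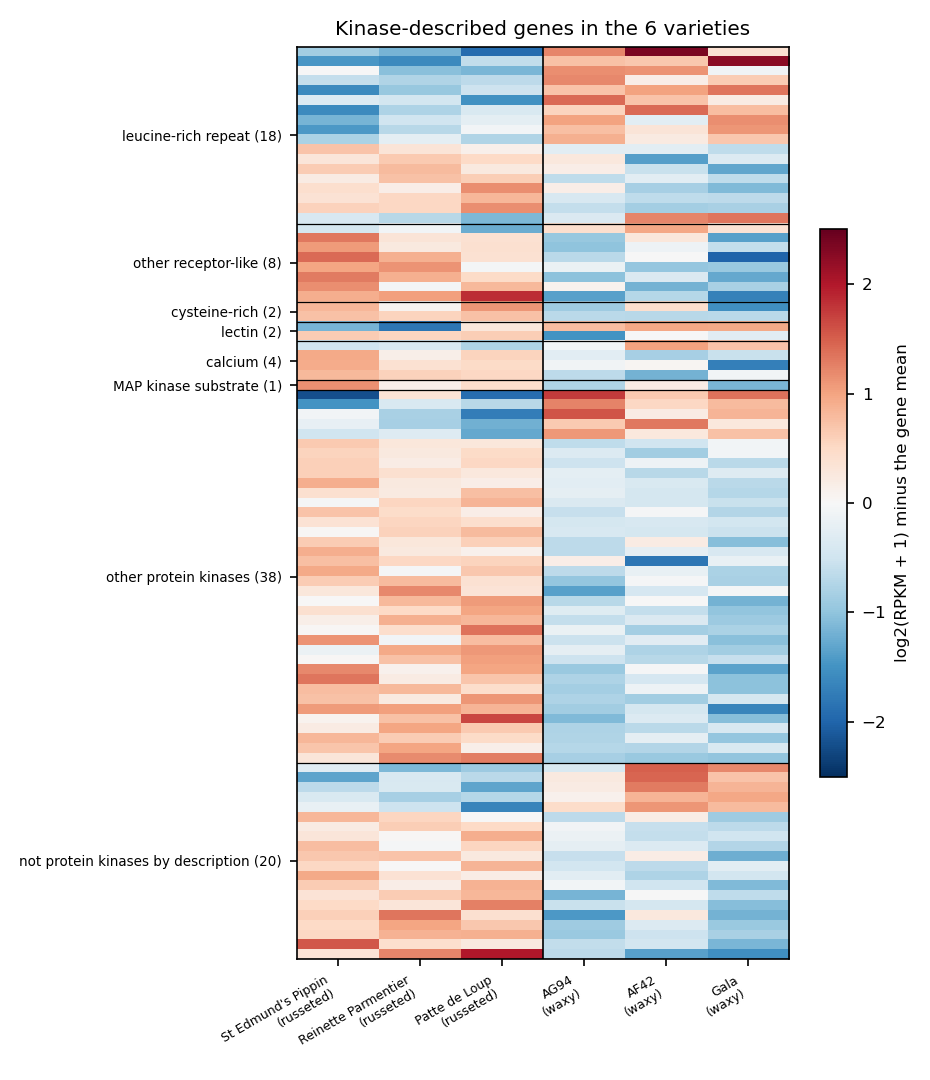
Each row is 1 of the 93 members and each column 1 variety; colour is log2(RPKM + 1) minus the mean of the gene over the 6 libraries, red higher and blue lower. Rows are grouped by class and, within a class, ordered by fold change, with the untested leucine-rich repeat gene last in its class. The upper leucine-rich repeat rows are blue in russeted columns, while most rows of the other protein kinases are red there. Of all tested genes 73.8% had fold changes above 0.

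Varieties of 1 phenotype also differed from each other. The members' median SD of log2(RPKM + 1) was 0.43 between russeted and 0.40 between waxy varieties, against 0.48 and 0.45 over all listed genes. Among russeted varieties St Edmund's Pippin held the highest value in 41 of 93 members (44.1%, against 34.8% of all listed genes) and Patte de Loup in 29 (31.2%, against 37.9%). Among waxy varieties AF42 was highest in 45 members (48.4%, against 42.8%) and Gala lowest in 46 (49.5%, against 44.7%). These shares are a description of 6 libraries. Members with a common Arabidopsis match mostly had folds of 1 sign per mapped read: of 15 matches shared by 37 members, 14 had all fold changes on 1 side of 0 and 1 did not. The exception was a pair of leucine-rich repeat genes, MDP0000202190 with a log2FC of -2.54 and MDP0000195813 with 1.22 (adjusted p = 0.0632 and 0.179). Over all tested genes 73.8% were above 0 per mapped read, and the same count was not made for their shared matches. With TMM factors the SNRK2-8 copies (-0.05 and 0.42), the phosphoinositide 4-kinase copies (-0.05 and 0.46) and the pyruvate kinase genes (5 above and 2 below 0) also split. So did MDP0000731702 (-0.11), MDP0000127306 (0.54) and MDP0000292756 (0.70). Copies that share reads are not independent, and 18 of the 93 members had under 50% unique reads, among them 2 of the 18 called.

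**Figure D4:**
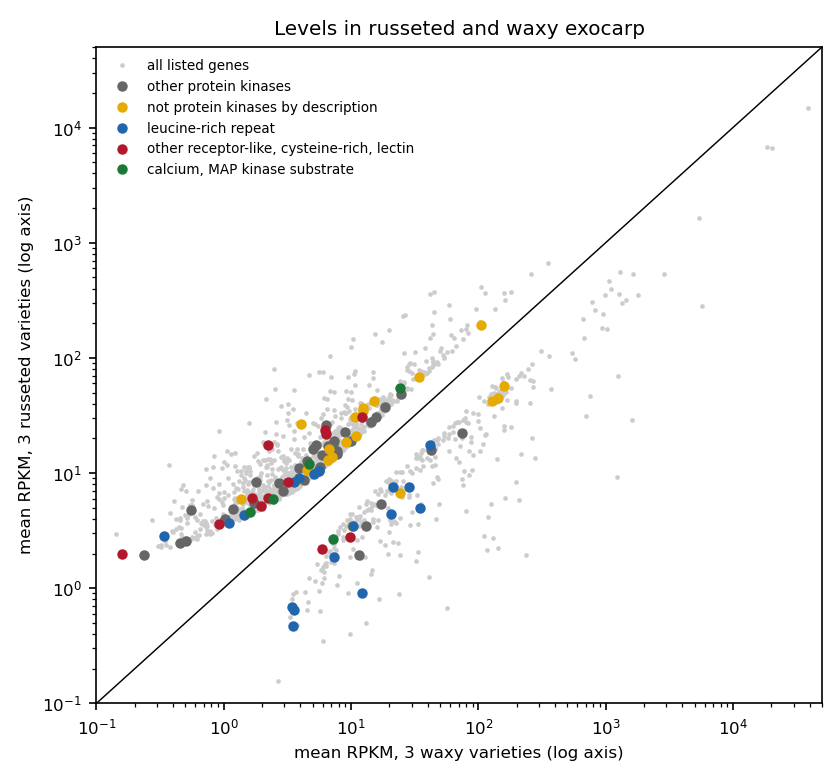
Mean RPKM of the 3 waxy (x) and 3 russeted varieties (y), both on log axes, for all listed genes (grey) and the members by class; the line marks equal levels. The deposited fold score of every listed gene is at least 1 on the log2 scale in size, which leaves a gap along the line; members lie between 0.160 and 192 RPKM, below the most abundant listed genes.

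In RPKM, which is per coding length, protein kinases were of low to middling level: the 38 other protein kinases had medians of 11.9 (russeted) and 5.78 RPKM (waxy), the leucine-rich repeat class 4.37 and 5.33 RPKM, and the members that are not protein kinases 23.8 and 10.9 RPKM. All listed genes had medians of 11.4 and 6.52 RPKM. By the authors' deposited table, russeted exocarp was higher in 69 members and lower in 24, and 31 had a false discovery rate under 0.05. Over all 1261 listed genes it was higher in 933 and lower in 328, and 453 had a rate under 0.05, so the members were near that background. The deposited direction differed from that of edgeR in 0 members, and 7 of the 18 members called with edgeR also had a deposited rate under 0.05. Both rest on the same 6 libraries, and every listed gene has a deposited fold score of at least 1 on the log2 scale in size. The shared direction is therefore not independent evidence.

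**Figure D5:**
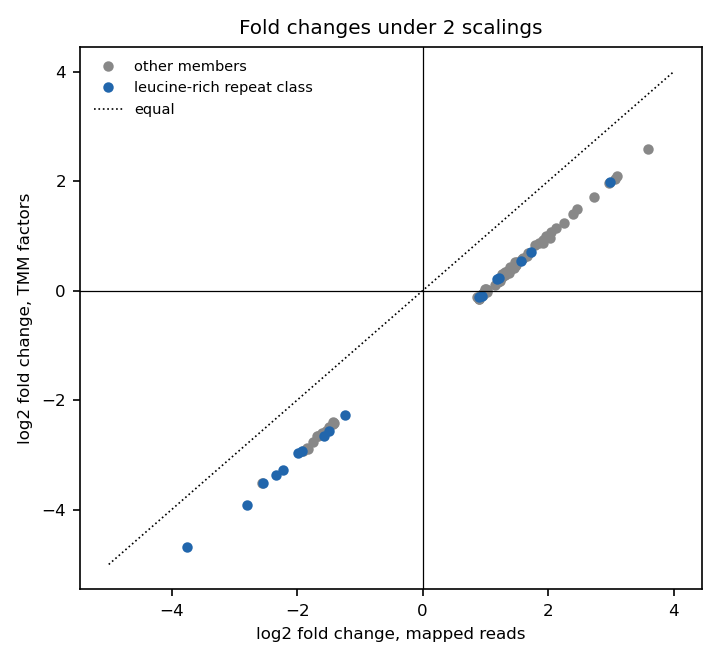
Log2 fold change of each tested member with mapped reads (x) and with TMM factors (y); the dotted line marks equal values, and blue points are the leucine-rich repeat class. All points lie about 1 unit below the line, so that many members near 1 on the x axis lie near 0 on the y axis, while the lowest leucine-rich repeat genes move further from 0.

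Description words for proteins that act with kinases found few genes in the table. Of 5 protein phosphatase list members 1 fell and 0 rose, and 2 fell with TMM factors and with DESeq2 size factors. The one that fell per mapped read, PAS2 (MDP0000337353), is described as phosphatase-like and acts in fatty acid elongation in Arabidopsis (log2FC -1.97 ± 0.56, adjusted p = 0.0496, and 0.0629 to 0.132 with any 1 variety left out). PUX5 (MDP0000294760), described as a regulatory subunit of phosphatase 2A, had a log2FC of -1.76 (adjusted p = 0.0763, and 0.0139 with TMM factors). The 2 protein phosphatase 2C family genes and PP2CA, brakes of abscisic acid signalling among them, had log2FCs of 0.91 to 1.08 and missed the threshold; with TMM factors 1 of these 3 was above 0. Of 5 genes found by calcium sensor words 0 passed (log2FCs of 0.94 to 1.69), and with TMM factors 3 of them were above 0. These words also found MDP0000311190, described as of a calcium-binding endonuclease, exonuclease or phosphatase family, and whether the 5 act with kinases was not tested. A 14-3-3 gene (MDP0000325633), whose product binds phosphorylated proteins, had a log2FC of 0.99 (adjusted p = 0.341), and of 2 leucine-rich repeat genes without a kinase 0 passed. The 4 kinase genes left out for a bulb-type lectin domain were all called, though MDP0000300498 alone held with any 1 variety left out: both ARK3 copies fell (log2FCs of -4.02 in MDP0000300852 and -2.42 in MDP0000212607) and 2 S-locus lectin kinases rose (3.06 in MDP0000300498 and 2.27 in MDP0000277380). With TMM factors 2 fell and 0 rose (adjusted p = 0.0589 for MDP0000300498 and 0.796 for MDP0000277380). A further 7 listed genes have a kinase domain but no such word in their description, and ANAC073, RHS16 and SRF5 among them rose (3 of 7, and 1 of 7 with TMM factors). SRF5 (MDP0000159806), described as of the STRUBBELIG-receptor family, had a log2FC of 4.27 on 2, 1 and 1 waxy reads (adjusted p = 0.00346, and 0.0127 with TMM factors). RHS16 (MDP0000176966) had a log2FC of 3.32 on 4, 9 and 14 waxy reads (adjusted p = 0.0145, and 0.128 with TMM factors). Both calls held with any 1 variety left out. The call of ANAC073 (MDP0000276278, adjusted p = 0.0476) was lost with any 1 variety but AF42 left out (up to 0.160) and on unique reads (0.0668). CIPK11 (MDP0000146449), chosen after its values were seen, is of the same family as CIPK8. It was at 47.5, 22.0 and 60.2 RPKM in russeted and at 10.1, 18.6 and 1.83 RPKM in waxy varieties (log2FC 2.08 ± 0.68, adjusted p = 0.0913).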

How the data were processed

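RNA-seq of 6 libraries was used. The authors deposited total and unique gene read counts, RPKM values (reads scaled to coding length and mapped reads), mean RPKM, and a signed fold score with its log2, p-value and false discovery rate from Baggerley's test; per the file headers the software was CLC Genomics Workbench 6.5. The genome build is not given in the sources used here. Mapped reads per library were recovered from reads, length and RPKM. The main test was the two-sided quasi-likelihood test of edgeR 4.0.16 (R 4.3.3, filterByExpr) on total reads, with mapped reads as library sizes. P was adjusted over 6449 genes, the number behind the authors' rates; genes not listed were taken to have larger p. SE was the absolute log2FC over root F. The fit was tested on simulated data. Limma 3.58.1 on log2(RPKM + 1) and DESeq2 1.42.0 were alternatives. The labels describe PCR and no molecular identifiers, so depth covers counting error only. P-values measure the spread between these libraries, 1 per variety.

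Members, lists and tests were chosen with earlier results of these data known. Classes were set by words in order; 5 descriptions that the words misplace (GHMP, aspartate or uridylate, phosphoinositide, carboxylase-related and malectin) were moved by meaning after the descriptions were read. Named by rule were all calcium, MAP kinase, wall-associated and cytosolic members, up to 2 risen and 2 fallen per class of at least 3, the 6 highest and 6 lowest fold changes, and the most abundant member per phenotype (21 genes); others were chosen after their values were seen. Of 93 identifiers 0 matched the RefSeq gene table, so no positions or sequences are given.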

Additional observations from a re-analysis of the deposited data

How the results depend on the processing

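The 21 genes named by rule kept their direction in every alternative but for the pyruvate kinase gene MDP0000124883, whose log2 fold change of 0.87 became -0.11 with TMM factors and -0.12 with DESeq2 size factors. Counts below are given as risen, then fallen. With TMM factors the counts were 43 and 297 over the table, 3 and 22 over the members, 1 and 10 in the leucine-rich repeat class, 0 and 1 among other receptor-like kinases, 1 and 4 among other protein kinases, and 0 and 5 among members that are not protein kinases. With DESeq2 size factors they were 111 and 322, 6 and 23, 1 and 11, 1 and 1, 2 and 4, and 1 and 5, in the same order. Adjusted over the listed genes alone they were 597 and 290, 43 and 23, 4 and 10, 7 and 1, 20 and 5, and 8 and 5, since fewer genes entered the adjustment. Limma on log2(RPKM + 1) called 7 risen members, with 2 risen and 2 fallen among other protein kinases and 2 risen that are not protein kinases; the last count was also 2 with no low-count filter and on unique reads. With classes by words alone, without the later move of 5 descriptions, 1 other receptor-like kinase rose. That comparison was added after the data were seen. Leaving out 1 variety gave 134 to 194 risen and 67 to 105 fallen genes over the table, 6 to 14 and 2 to 6 members, 1 to 2 and 1 to 6 leucine-rich repeat genes, 1 to 3 and 0 to 0 other receptor-like kinases, 2 to 7 and 0 to 1 other protein kinases, and 1 to 1 and 0 to 1 members that are not protein kinases. The cause of these moves was not tested. Extract numbers did not pair the libraries (correlations of -0.0946 to -0.0206 between same-numbered extracts); with the replicate block 209 genes rose and 110 fell, with 10 and 8 members. Low reads limit the members: 51 of 93 had at most 50 reads in some library.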
